A study of Mus musculus with 8 samples.

Results

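Secondary neurospheres (SNs, passage 1) were compared with primary neurospheres (PNs, passage 0) on 4 arrays each, in control cells and in cells overexpressing the transcription factor NFIA. Members were the genes whose 4 SNs arrays all lay above or all lay below the 4 PNs arrays, and 1717 of the 13789 genes measured met that rule. The 4 groups, of 2 arrays each, were PNs_CT, PNs_NFIA_OE, SNs_CT and SNs_NFIA_OE. CT stands for control neural stem and progenitor cells (NSPCs), and NFIA_OE for NSPCs of an NFIA-overexpressing line. All 8 samples came from mouse embryonic stem cells (ESCs) by way of embryoid bodies (EBs). Control and NFIA cells had grown together in mixed neurospheres and were parted by fluorescence-activated cell sorting, so every control sample came from a culture that also held NFIA cells. PNs were taken after 6 days of culture since the EBs and SNs after 12 days, so passage and time in culture changed together. The ESC line, the promoter that drives NFIA, the number of clones, the colour marker used in the sort and the cultures behind each number are not given in the sources used here. Where nothing says that 2 arrays of a group came from separate cultures, a p-value measures only the spread between these samples.

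Neurospheres are floating clusters grown from neural stem and progenitor cells, and dissociating primary spheres and regrowing their cells gives secondary spheres. Neural progenitors of the embryo first make neurons, under proneural basic helix-loop-helix factors, and later make astrocytes and oligodendrocytes. ESC-derived neurospheres are known to follow this order over successive passages. NFIA belongs to the nuclear factor I family, whose members act with SOX9 in the onset of gliogenesis, and LIN28 and HMGA2 are known as factors of early, neurogenic progenitors.

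RNA of each sample was hybridised to 1 one-colour Agilent mouse array, and all 8 arrays sat on 1 slide with 1 scan time. Each level below is the log2 signal of a gene's brightest probe minus the 75th percentile of its array, so 0 is the level that 75 percent of an array's probes do not reach. A probe counted as measured above background where the scanner software called it well above background, which held for 45.4% to 56.4% of the 59305 spots of an array, and no spot was saturated. Arrays give no read depth, so precision rested on the number of arrays, the spread between them and these background limits. The lowest level called well above background lay between -4.50 and -4.29 on the PNs arrays and between -3.97 and -3.14 on the SNs arrays, so a gene falling out of detection met a higher floor in the SNs.

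The scanner files and the sample titles did not match. In the deposited value table, 7 of the 8 columns tracked the scanner file attached to another sample, at a correlation of at least 0.9998, against at most 0.3349 for the next best file; 1 column, PNs_CT replicate 2, tracked its own. All values here follow the titles of the value table, and with files taken as attached no gene passed the test, with 78 at an unadjusted p under 0.05. By this assignment the PNs arrays filled row 1 of the slide and the SNs arrays row 2, so passage and slide row cannot be told apart. Titles and source names also differed: the source names place all 4 control samples in the NFIA line and PNs_NFIA_OE replicate 1 and SNs_NFIA_OE replicate 2 in the wild type, and groups here follow the titles.

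Nfia itself read -1.30 and -0.30 in PNs_CT, -0.24 and 0.93 in PNs_NFIA_OE, 1.00 and 0.61 in SNs_CT, and 1.70 and 1.62 in SNs_NFIA_OE. The NFIA arrays lay above the control arrays of the same number within each passage, and 1.00 ± 0.32 (SE) on the log2 scale separated the cell types over both passages; whether the probe reads the introduced NFIA is not known from the sources used here. Control SNs lay above both control PNs, so the gene also differed by passage, as described with its family below.

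Across both cell types, genes that fell from PNs to SNs included neurogenic factors such as Tbr1 and Nhlh2, regional patterning factors such as Gsx2 and Dbx1, and cell cycle genes such as Ccnb1. Genes that rose included the glial factors Nfix and Olig1, the glutamate receptor gene Grm5 and the collagen gene Col1a1. In the limma fit with NFIA state as covariate, 470 genes rose (3.41% of those tested) and 536 fell (3.89%), 1006 in all (7.3%), with the threshold at an adjusted p of 0.05 and 3628 genes at an unadjusted p under 0.05. Of those past the test, 28 that rose were above background on no PNs array and 74 that fell on no SNs array. Such genes entered the test only through the passage where they were higher, and their differences rest on signals near the floor. The median difference over all genes was -0.084 on the log2 scale. Non-overlapping arrays marked 610 genes as higher in SNs (4.42%) and 1107 as lower (8.03%), which makes 12.5% of the genes tested. Both criteria held for 241 genes that rose (1.75%) and 427 that fell (3.1%), 668 in all (4.84%). In bulk RNA, fewer cells of a type and less RNA per cell cannot be told apart.

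**Figure D1:**
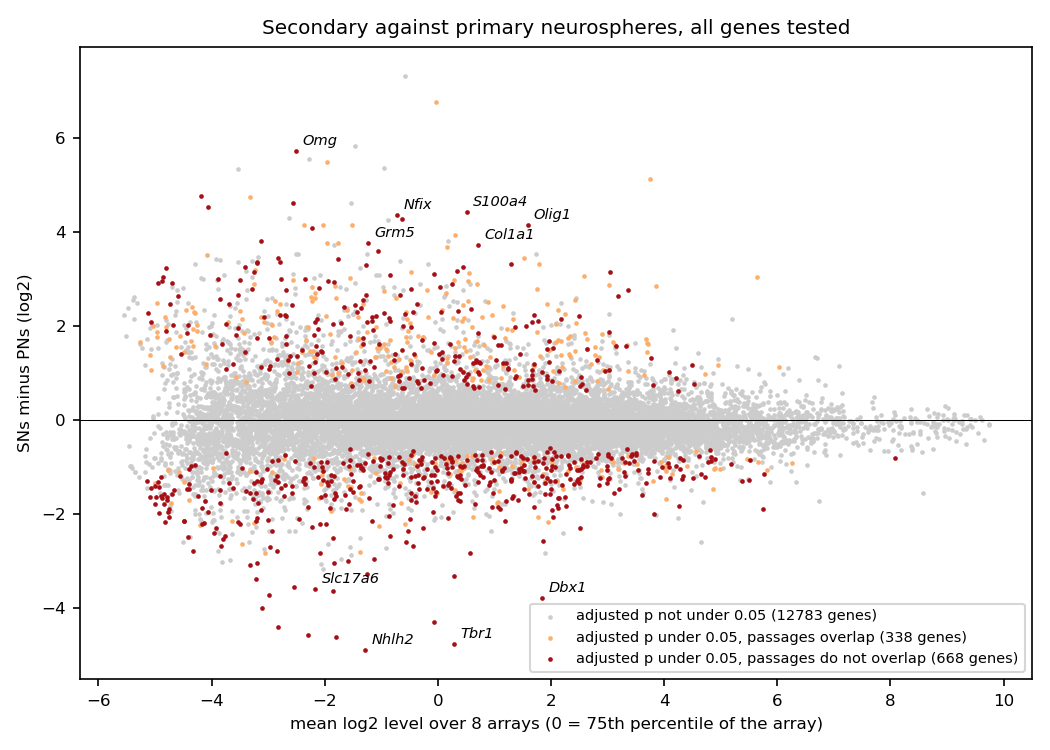
Difference between SNs and PNs (y axis, log2) against mean level over the 8 arrays (x axis, log2, 0 = 75th percentile of an array), 1 point per gene. Of the 13789 genes, 668 passed the test with no overlap between passages (dark red), 338 passed it with overlap (orange) and 12783 did not pass it (grey).

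The counts depended on which arrays were taken as independent. Control and NFIA arrays of the same number deviated together within PNs (r = 0.445 between their deviations from the group means, across genes) and within SNs (r = 0.484), as arrays from a shared mixed culture could. With each such pair as a random block (consensus correlation 0.328), 53 genes passed, 20 rising (0.145%) and 33 falling (0.239%), and all 53 were among the 1006. That setting is called the culture block below, although no source used here says that the arrays of a pair shared a culture. The number of calls was 119 without PNs_CT replicate 1, 155 without PNs_CT replicate 2, 58 without PNs_NFIA_OE replicate 1 and 278 without PNs_NFIA_OE replicate 2. It was 1666 without SNs_CT replicate 1, 700 without SNs_CT replicate 2, 240 without SNs_NFIA_OE replicate 1 and 281 without SNs_NFIA_OE replicate 2. Without both NFIA samples whose source name says wild type, 0 genes passed in limma and 2254 stood at an unadjusted p under 0.05.

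Members varied in how far the passages stood apart. Among the 668 genes with both criteria, the gap between the nearest SNs and PNs arrays had a median of 0.37 on the log2 scale. Its largest value was 3.17, for Tbr1, and its smallest was 0.0014, for Cacna2d2, a calcium channel auxiliary subunit. At the edge of the rule, Nckap1, a subunit of the WAVE actin regulatory complex, was just inside with a gap of 2.3e-05. Its level was 1.12 in SNs_CT replicate 1 and 1.12 in PNs_CT replicate 1, and the difference of 0.33 did not pass the test (adjusted p = 0.26). Egfr, the epidermal growth factor receptor, was just outside although its difference of 3.46 passed it (adjusted p = 0.012), because PNs_NFIA_OE replicate 2 and SNs_CT replicate 1 both read 1.92.

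The arrays also differed in how far they had moved. With each gene's PNs mean set to 0 and distance counted towards its SNs level, the median over the 668 genes was -0.22 and -0.14 for the PNs_CT arrays, 0.047 and 0.32 for the PNs_NFIA_OE arrays, 1.00 and 1.1 for the SNs_CT arrays, and 1.46 and 1.63 for the SNs_NFIA_OE arrays (log2). SNs_CT replicate 1 lay nearest the PNs among the SNs and PNs_NFIA_OE replicate 2 nearest the SNs among the PNs. These genes were chosen for this difference, so the positions describe them and test nothing.

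The genes that fell most included transcription factors of the developing neural tube. Tbr1, a T-box factor of early-born cortical glutamatergic neurons, read 3.51 and 2.47 in PNs_CT, 2.91 and 1.81 in PNs_NFIA_OE, -1.37 and -2.54 in SNs_CT, and -1.83 and -2.68 in SNs_NFIA_OE. All 4 PNs arrays lay above all 4 SNs arrays by the widest gap among the 668 genes with both criteria, and the difference was -4.78 ± 0.40 (adjusted p = 0.00913). Nhlh2, a basic helix-loop-helix factor of newly formed neurons, gave 1.89 and 1.08 in control PNs, 1.40 and 0.31 in NFIA PNs, -2.19 and -3.14 in control SNs, and -3.52 and -6.10 in NFIA SNs. The passages did not overlap, SNs_NFIA_OE replicate 2 was the lowest and not well above background, and the difference was -4.91 ± 0.63 (adjusted p = 0.0144). Gsx2, a homeobox factor of ventral forebrain progenitors, fell from 0.55, 0.63, -0.98 and -0.21 in the PNs to -2.13, -5.89, -5.79 and -4.55 in the SNs. SNs_CT replicate 1 kept the highest SNs level and was the only SNs array with Gsx2 well above background (-4.59 ± 0.74 (adjusted p = 0.0206)).

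Progenitor factors of the spinal cord, hindbrain and diencephalon fell with them. Dbx1, which marks interneuron progenitors at the middle of the dorsoventral axis, had levels of 4.10 and 4.16 in PNs_CT, 3.44 and 3.28 in PNs_NFIA_OE, 1.82 and 0.55 in SNs_CT, and -0.33 and -2.26 in SNs_NFIA_OE. PNs lay close together, SNs were spread below them, lowest in the NFIA cells, and the difference was -3.80 ± 0.53 (adjusted p = 0.0165). Olig3, a factor of dorsal progenitors, read -0.071 and -0.13 in control PNs and -1.24 and -1.64 in NFIA PNs, against -2.87, -5.73, -2.88 and -5.81 in the SNs. Both replicates numbered 2 of the SNs were not well above background, while both numbered 1 sat close to each other and above them (-3.55 ± 0.78 (adjusted p = 0.0391)). Prdm12, a regulator of sensory and interneuron fate, and Dmbx1, a homeobox factor of the midbrain, were well above background on all 4 PNs arrays and on no SNs array.

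For such genes the SNs level is only a bound, so the fold is given as a lower bound, from the mean of the bright group against the detection floor of the dim arrays or the dim signal itself where that was higher. Prdm12 was at least 5.73-fold lower in SNs (difference of the measured values -4.02 ± 0.55 (adjusted p = 0.0153)). The bound was at least 5.69-fold lower for Dmbx1 (-3.74 ± 0.49 (adjusted p = 0.0144)). Fezf1, a zinc finger repressor of the rostral forebrain, remained above background on 3 SNs arrays and fell by 3.28 on the log2 scale (SE 0.47, adjusted p = 0.0178), from 0.87, 1.32, -0.34 and -0.32 to -1.1, -3.02, -2.96 and -4.52. The nearest arrays of the passages, both NFIA PNs and SNs_CT replicate 1, stood next to each other.

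Other leading losses included genes of neurons themselves. Slc17a6, the vesicular glutamate transporter VGLUT2, read 0.60 and -0.16 in PNs_CT, -0.51 and -1.37 in PNs_NFIA_OE, -2.63 and -3.37 in SNs_CT, and -4.51 and -5.39 in SNs_NFIA_OE. Every SNs array was below every PNs array, and the NFIA arrays were below the control arrays at each passage (-3.61 ± 0.35 (adjusted p = 0.00913)). Cartpt, a neuropeptide precursor, gave 3.36 and 1.80 in control PNs, 2.23 and 0.91 in NFIA PNs, -0.21 and -2.09 in control SNs, and -2.69 and -3.92 in NFIA SNs, and Sst, the somatostatin precursor, gave 1.16 and -0.12 in control PNs, 0.28 and -1.44 in NFIA PNs, -1.55 and -3.78 in control SNs, and -4.34 and -5.06 in NFIA SNs. Neither overlapped, but PNs_NFIA_OE replicate 2 and SNs_CT replicate 1 lay next to each other for Sst, and the differences were -4.30 ± 0.60 (adjusted p = 0.016) for Cartpt and -3.65 ± 0.61 (adjusted p = 0.0222) for Sst.

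Robo3, an axon guidance receptor of commissural neurons, fell from 2.62, 1.79, 2.14 and 1.22 to 0.13, -1.40, -1.40 and -2.84, and stayed above background on all 8 arrays (-3.32 ± 0.49 (adjusted p = 0.018)). Rasgrp1, a guanine nucleotide exchange factor for Ras, read 1.18 and 0.18 in PNs_CT, 1.02 and -0.32 in PNs_NFIA_OE, -2.84 and -4.75 in SNs_CT, and -2.97 and -5.91 in SNs_NFIA_OE. The replicates numbered 2 were the lower ones in each group, 2 of 4 SNs arrays were above background, and the difference was -4.63 ± 0.71 (adjusted p = 0.0189). Rspo2, a secreted enhancer of Wnt signalling, was well above background on all PNs arrays, at 0.13, -0.47, -0.75 and -1.42, and on no SNs array. It was at least 7.98-fold lower in SNs, with a measured difference of -4.41 ± 0.41 (adjusted p = 0.00913). With the culture block, 7 of these 15 genes still passed: Nhlh2, Tbr1, Rspo2, Cartpt, Dmbx1, Slc17a6 and Fezf1, at adjusted p from 0.0375 to 0.0466.

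Several of these differences depended on signals near the detection floor. With each SNs array at its own level or its floor, whichever was higher, PNs stood above SNs by at least 4.33 for Nhlh2, 3.81 for Rasgrp1, 3.37 for Gsx2, 4.27 for Cartpt, 3.2 for Sst, 3.08 for Slc17a6, 2.51 for Olig3 and 3.1 for Fezf1 (log2). With normexp background correction, which draws dim signals together, the differences were nearer 0 by over 1.5 times: Nhlh2 -3.18, Rasgrp1 -2.65, Gsx2 -2.52, Rspo2 -1.98, Prdm12 -1.84, Dmbx1 -1.75, Sst -2.13, Slc17a6 -1.99, Olig3 -1.64 and Fezf1 -2.12, each still past the test. Without the filter on dim probes Olig3 no longer passed (adjusted p = 0.0578).

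**Figure D2:**
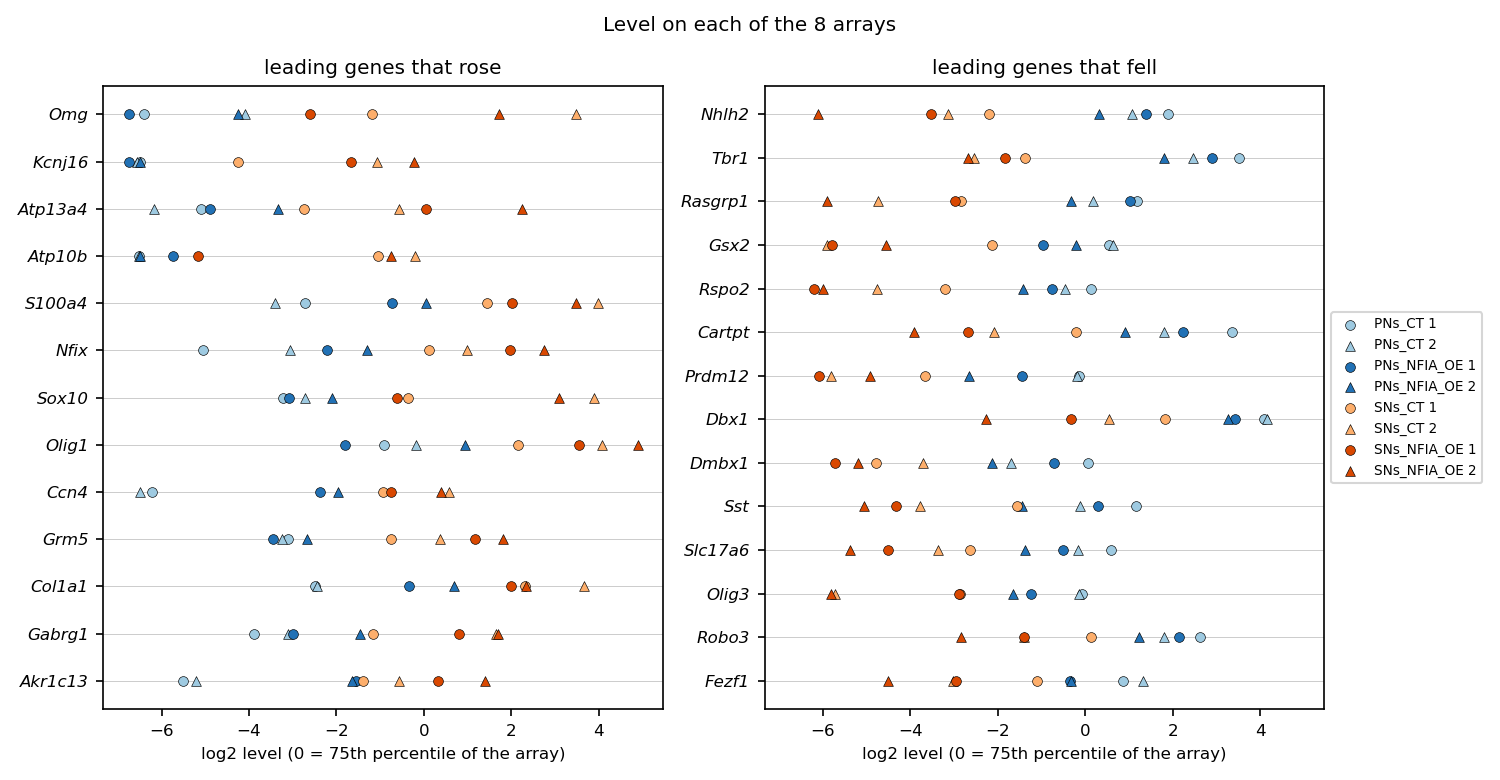
Level of 13 of the 15 genes that rose most (left) and 14 of the 15 that fell most (right) on each of the 8 arrays, in log2 units with 0 at the 75th percentile of the array. Blue points are PNs and orange points SNs, light for control and dark for NFIA cells, circles for replicate 1 and triangles for replicate 2; in each of the 27 genes the orange and blue points do not overlap.

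Among the genes that rose most, several belong to the glial lineages. Nfix, a nuclear factor I family member, read -5.04 and -3.05 in PNs_CT, -2.21 and -1.30 in PNs_NFIA_OE, 0.13 and 0.99 in SNs_CT, and 1.96 and 2.75 in SNs_NFIA_OE. The passages did not overlap, the order within each passage ran from control to NFIA cells, and the difference was 4.36 ± 0.47 (adjusted p = 0.0104). Nfix was above background on 3 PNs arrays, and with PNs arrays at their floor or own level the difference was at least 4.20 (log2). Olig1, a basic helix-loop-helix factor of oligodendrocyte progenitors, gave -0.92 and -0.19 in control PNs, -1.80 and 0.94 in NFIA PNs, 2.15 and 4.08 in control SNs, and 3.55 and 4.89 in NFIA SNs. The highest PNs array, PNs_NFIA_OE replicate 2, stayed below the lowest SNs array, SNs_CT replicate 1 (4.16 ± 0.70 (adjusted p = 0.0226)). Sox10, a SOXE factor required for oligodendrocyte differentiation, stood at -3.22, -2.71, -3.09 and -2.10 in PNs and at -0.36, 3.88, -0.60 and 3.08 in SNs. Both SNs replicates numbered 2 stood far above both numbered 1, and the difference of 4.28 ± 1.05 was just past the test (adjusted p = 0.04997). It no longer passed with normexp (adjusted p = 0.0526), quantile normalization (0.0558), no filter on dim probes (0.0578) or the culture block (0.0955).

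Omg, which encodes oligodendrocyte myelin glycoprotein, showed the same split, with -6.39 and -4.09 in PNs_CT, -6.75 and -4.26 in PNs_NFIA_OE, -1.18 and 3.48 in SNs_CT, and -2.61 and 1.72 in SNs_NFIA_OE. It was above background on 1 of 4 PNs arrays and on all SNs arrays, and the difference was 5.73 ± 1.32 (adjusted p = 0.043). With PNs arrays at their floor or own level it was at least 4.66 (log2), and with normexp it was 2.98 and no longer passed (adjusted p = 0.0867). Nor did it pass without the filter on dim probes (adjusted p = 0.0578). Atp13a4, a P5-type transport ATPase, read -5.10 and -6.16 in control PNs, -4.90 and -3.33 in NFIA PNs, -2.74 and -0.57 in control SNs, and 0.048 and 2.24 in NFIA SNs, and was likewise above background on 1 PNs array only (4.62 ± 0.70 (adjusted p = 0.0186)). Kcnj16, an inwardly rectifying potassium channel subunit, was above background on no PNs array and on 3 SNs arrays. Its SNs levels were -4.25, -1.07, -1.66 and -0.23, of which SNs_CT replicate 1 was not above background (4.78 ± 0.72 (adjusted p = 0.0186) for the measured values, 1.65 with normexp). Atp10b, a phospholipid flippase, was also above background on no PNs array. Its SNs levels were -1.05, -0.19, -5.18 and -0.76, of which SNs_NFIA_OE replicate 1 was not above background (4.53 ± 0.96 (adjusted p = 0.036) for the measured values). With normexp the difference was 1.64 and no longer passed (adjusted p = 0.0702), nor did it without the filter on dim probes (adjusted p = 0.0578). For both genes no fold is given, since arrays of each passage were below background.

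The glutamate and GABA receptor genes Grm5 and Gabrg1 were among the leading gains. Grm5, the metabotropic glutamate receptor mGluR5, read -3.10 and -3.25 in PNs_CT, -3.44 and -2.68 in PNs_NFIA_OE, -0.76 and 0.36 in SNs_CT, and 1.17 and 1.81 in SNs_NFIA_OE. The 4 PNs arrays lay close together, all SNs arrays were above them, highest in the NFIA cells, and the difference was 3.76 ± 0.41 (adjusted p = 0.0109). Another 2 probes of Grm5 differed by 3.37 and 0.28, so the size depended on the probe. Gabrg1, a GABA-A receptor subunit, gave -3.87 and -3.10 in control PNs, -2.99 and -1.46 in NFIA PNs, -1.16 and 1.64 in control SNs, and 0.81 and 1.70 in NFIA SNs, with PNs_NFIA_OE replicate 2 and SNs_CT replicate 1 nearest each other (3.60 ± 0.63 (adjusted p = 0.0238)).

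Matrix genes were also among them. Col1a1, the alpha-1 chain of type I collagen, read -2.49 and -2.44 in PNs_CT, -0.34 and 0.68 in PNs_NFIA_OE, 2.31 and 3.67 in SNs_CT, and 1.99 and 2.34 in SNs_NFIA_OE. Control PNs were the lowest arrays, NFIA PNs lay between, and the 4 SNs arrays were the highest (3.72 ± 0.71 (adjusted p = 0.0274)). Ccn4, a matricellular protein of the Wnt-responsive CCN family, had the same order at -6.22 and -6.50 in control PNs, -2.37 and -1.97 in NFIA PNs, -0.93 and 0.57 in control SNs, and -0.76 and 0.39 in NFIA SNs, and was above background in NFIA PNs but not in control PNs (4.09 ± 0.84 (adjusted p = 0.0332)). With those at their floor the difference was at least 3.08 (log2).

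The calcium-binding protein gene S100a4 gave -2.72 and -3.40 in control PNs, -0.74 and 0.045 in NFIA PNs, 1.44 and 3.97 in control SNs, and 2.02 and 3.48 in NFIA SNs, with no overlap and the control PNs lowest (4.43 ± 0.74 (adjusted p = 0.0229)). Akr1c13, an aldo-keto reductase, also had the control PNs lowest, at -5.51 and -5.22 and all other arrays between -1.65 and 1.40 (3.42 ± 0.45 (adjusted p = 0.0144)). Those control PNs were not above background, and with PNs arrays at their floor or own level the difference was at least 2.91 (log2). With the culture block 2 of these 15 genes passed, Nfix (adjusted p = 0.0375) and Grm5 (adjusted p = 0.0425). With normexp the differences were 2.4 for Atp13a4, 1.89 for Ccn4 and 1.95 for Akr1c13, over 1.5 times nearer 0 and past the test. Without the filter on dim probes Ccn4 no longer passed (adjusted p = 0.0549).

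Some larger differences fall outside this group because their passages overlapped or the test was not passed. They are named here after their values were seen. Gpr17, a receptor of oligodendrocyte precursors, had the difference 7.34 ± 1.80 with an adjusted p of 0.0513. Itih3 and Bcan passed the test but overlapped, and are described with the astrocyte genes.

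Promoter sequences are shown for 2 genes that rose and 2 that fell, to let the windows of genes moving in opposite directions be read side by side. They were picked after the motif counts were known: the first 2 leading genes that rose whose window holds the E-box CAGCTG, and the first 2 leading genes that fell with an entry. Each runs 5′ to 3′ on the gene's strand from 250 bases before to 50 bases after the start, from RefSeq on GRCm38.p6, with matches to any motif searched in capitals. Kcnj16 lies at chr11:110967783-110968082 on the plus strand, Atp13a4 at chr16:29541434-29541733 on the minus strand, Nhlh2 at chr3:102009895-102010194 on the plus strand and Tbr1 at chr2:61804203-61804502 on the plus strand.
Kcnj16: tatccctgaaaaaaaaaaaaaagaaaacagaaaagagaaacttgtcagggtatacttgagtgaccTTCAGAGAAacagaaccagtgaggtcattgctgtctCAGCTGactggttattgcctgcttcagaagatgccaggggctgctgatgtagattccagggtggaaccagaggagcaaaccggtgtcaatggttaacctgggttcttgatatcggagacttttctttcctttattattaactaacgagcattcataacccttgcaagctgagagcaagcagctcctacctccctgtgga
Atp13a4: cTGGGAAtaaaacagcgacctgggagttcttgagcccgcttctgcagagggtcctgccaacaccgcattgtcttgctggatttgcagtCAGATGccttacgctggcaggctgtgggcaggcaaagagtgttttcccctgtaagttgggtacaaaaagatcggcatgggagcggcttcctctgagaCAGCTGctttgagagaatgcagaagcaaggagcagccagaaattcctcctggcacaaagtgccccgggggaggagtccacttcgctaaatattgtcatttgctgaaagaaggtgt
Nhlh2: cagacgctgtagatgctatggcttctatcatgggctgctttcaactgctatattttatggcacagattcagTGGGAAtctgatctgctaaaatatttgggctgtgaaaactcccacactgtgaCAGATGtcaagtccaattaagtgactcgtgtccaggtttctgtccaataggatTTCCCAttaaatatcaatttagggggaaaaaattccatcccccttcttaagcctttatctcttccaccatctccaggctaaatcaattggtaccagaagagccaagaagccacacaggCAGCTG
Tbr1: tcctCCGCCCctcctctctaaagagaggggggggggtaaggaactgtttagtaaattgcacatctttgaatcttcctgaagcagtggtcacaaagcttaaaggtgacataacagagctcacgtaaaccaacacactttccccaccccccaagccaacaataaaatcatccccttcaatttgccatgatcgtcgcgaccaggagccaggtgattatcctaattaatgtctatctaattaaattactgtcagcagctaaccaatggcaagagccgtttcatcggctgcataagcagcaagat

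The motifs searched on both strands were TTCNNNGAA (STAT factors), the E-boxes CAGCTG and CATCTG (bound by basic helix-loop-helix factors), TGGGAA (RBPJ, the Notch effector), GGGCGG (the GC box) and the full palindromic site of NFI and a spaced variant of it. None contains another. A promoter entry existed for 346 of the 470 genes that rose, 420 of the 536 that fell and 10957 of the genes tested. CAGCTG stood in 22.83% of the windows of genes that rose, 13.81% of those that fell, 15.04% of all genes tested and 16.11% of all 27025 windows of this length. CATCTG stood in 17.34%, 13.33%, 11.68% and 17.22% of the same sets, and TGGGAA in 23.7%, 18.1%, 23.02% and 25.52%. GGGCGG stood in 60.69%, 65.0%, 63.2% and 35.91%, and TTCNNNGAA in 4.62%, 5.71%, 6.81% and 8.47%. The full NFI site was in no window of the genes that rose or fell and in 0.04% of all windows. Its shorter form was in 1 window of a gene that rose. In the printed windows the capitals of Kcnj16 are TTCAGAGAA and CAGCTG, while that of Tbr1 is the GC box read on the other strand, CCGCCC. The windows of Atp13a4, which rose, and Nhlh2, which fell, each hold both E-boxes and the RBPJ site. None of these motifs therefore parts the printed genes by direction. A match is a description of letters only.

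Lists of genes by function were set beside these leading genes. For each list the counts are of members past the test over all genes, to be read against the 3.41% that rose and 3.89% that fell of all genes tested, and the median difference against -0.084 for all genes. Counts of members without overlap are to be read against the 4.42% of all genes tested that were higher in SNs and the 8.03% that were lower. Since the lists were chosen with earlier results of these data known, the counts describe and do not support. Under the culture block most of these calls were lost: 14 list members passed, in 10 of the 39 lists. Rspo2 passed alone in the Wnt list, Smad9 in the BMP and ID list, H2-K1 in the interferon list and Nr0b1 in the pluripotency list, and the rest are given with their lists.

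Of the proneural and neurogenic progenitor genes, 5 of 26 measured fell and none rose, 8 had non-overlapping lower SNs arrays, and the median difference was -1.04. Under the culture block 3 passed, Neurod1, Nhlh2 and Tbr1. Beside Nhlh2 and Tbr1, Neurod1, a proneural factor of differentiating neurons, was above background on all PNs arrays, at -1.27, -1.59, -2.13 and -2.15, and on no SNs array, which made it at least 3.58-fold lower (-3.09 ± 0.41 (adjusted p = 0.0144)). Eomes, the T-box factor of intermediate cortical progenitors, read 1.57 and 1.17 in PNs_CT, 0.95 and -0.044 in PNs_NFIA_OE, -0.51 and -0.92 in SNs_CT, and -2.57 and -3.09 in SNs_NFIA_OE (-2.69 ± 0.34 (adjusted p = 0.0144)). It was above background on every array, highest in PNs_CT replicate 1 and lowest in SNs_NFIA_OE replicate 2. Elavl4, a neuronal RNA-binding protein, also fell (-1.92 ± 0.39 (adjusted p = 0.033)). Neurog2, a proneural factor, did not overlap but missed the test (-3.17 ± 0.85 (adjusted p = 0.0635)).

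Neuronal genes fell in 7 of 35 cases with none rising, at a median of -0.89, and under the culture block 2 passed, Scg2 and Slc17a6. Scg2, the secretogranin II of secretory granules, read 3.09, 2.60, 2.22 and 1.69 in PNs and 1.40, 1.13, 0.34 and 0.37 in SNs (-1.59 ± 0.20 (adjusted p = 0.014)). Nefm and Nefl, the medium and light neurofilament chains, and Stmn2, a tubulin-binding protein of growing axons, also fell but overlapped, with differences of -2.25 ± 0.47, -2.06 ± 0.43 and -1.69 ± 0.37. Th, the rate-limiting enzyme of dopamine synthesis, fell without overlap (-1.18 ± 0.20 (adjusted p = 0.0238)). The serotonin transporter Slc6a4 fell as well but was above background on 2 PNs arrays and on no SNs array. Tubb3, neuronal beta-III tubulin, and Dcx, doublecortin, did not pass (-1.25 ± 0.48 and -0.27 ± 0.32), and SNs_CT replicate 1 read the highest of all arrays for both.

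Forebrain patterning factors fell in 5 of 20 cases, with none rising and a median of -1.47, and under the culture block 2 passed, Dmrta2 and Fezf1. Dmrta2, a factor of cortical progenitors, read 0.84 and 0.79 in control PNs, 0.032 and -0.22 in NFIA PNs, -2.83 and -1.91 in control SNs, and -2.70 and -2.99 in NFIA SNs. Within each passage the arrays lay close together, and the difference was -2.96 ± 0.24 (adjusted p = 0.00913). Fezf2, a determinant of deep-layer projection neurons, fell (difference -3.04 ± 0.61 (adjusted p = 0.031)) and Lhx2, a LIM homeobox factor of the cortical and retinal primordium, did so too (-2.57 ± 0.54 (adjusted p = 0.0349)). Ventral and dorsal neural tube factors fell in 4 of 20 cases, where Pax3 joined Prdm12, Dbx1 and Olig3 (-2.61 ± 0.54 (adjusted p = 0.0343)). In the midbrain and hindbrain list 1 of 17 genes fell, Pax8 (-2.21 ± 0.46 (adjusted p = 0.0346)), at a list median of -0.89, and with normexp Pax8 was -0.71 and no longer passed (adjusted p = 0.0536).

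Posterior HOX genes went the other way without passing. Of 27 listed genes 12 were measured and 3 were above background on all 8 arrays, and 11 of 12 had a positive difference at a median of 1.51. Not one passed, the smallest adjusted p being 0.203 for Hoxb6 (1.89 ± 0.84), and none was free of overlap. The list's mean level was -1.90 and -4.50 in PNs_CT, -1.79 and -4.38 in PNs_NFIA_OE, -1.72 and -3.05 in SNs_CT, and -0.34 and -2.61 in SNs_NFIA_OE. Replicate 2 thus lay below replicate 1 in each group. The scale's floor was also higher on the SNs arrays, and its part in these differences was not tested.

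Astrocyte genes rose in 10 of 33 cases and none fell, at a median of 1.75, with 31 positive differences. None passed under the culture block (smallest adjusted p = 0.0677). Bcan, brevican, a proteoglycan of the perineuronal matrix, read -1.98 and -0.74 in PNs_CT, 2.76 and 4.73 in PNs_NFIA_OE, 4.40 and 7.05 in SNs_CT, and 5.82 and 8.01 in SNs_NFIA_OE. Its lowest SNs array lay below its highest PNs array, since NFIA PNs already stood near the SNs, and the difference was 5.13 ± 1.03 (adjusted p = 0.0312). Itih3, an inter-alpha-trypsin inhibitor heavy chain, gave -5.96 and -6.50 in control PNs, -3.84 and -2.49 in NFIA PNs, -2.68 and 1.92 in control SNs, and 0.89 and 3.06 in NFIA SNs (5.49 ± 0.97 (adjusted p = 0.0245)). SNs_CT replicate 1 lay among the NFIA PNs, and Itih3 was above background on 2 PNs arrays only. Sparcl1, the secreted astrocyte protein hevin, was among the brightest genes of the list at 2.53, 2.27, 4.84 and 6.82 in PNs and 4.99, 6.61, 8.25 and 8.80 in SNs (3.05 ± 0.51 (adjusted p = 0.022)).

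Aldh1l1, a folate enzyme used as a pan-astrocyte marker, rose (2.56 ± 0.57 (adjusted p = 0.0401)), as did Slc1a3, the glutamate transporter GLAST (1.52 ± 0.35 (adjusted p = 0.0432)), and Slc4a4, a sodium bicarbonate cotransporter (2.19 ± 0.38 (adjusted p = 0.0238)). Gfap, the intermediate filament of astrocytes, was above background on no PNs array and on 2 SNs arrays, so that no fold is given (2.92 ± 0.71 (adjusted p = 0.0488) for the measured values). It was the only astrocyte gene of the list without overlap, which for arrays below background rests on signals near the floor. S100b read -6.44 and -6.54 in control PNs and -4.26 and 5.06 in control SNs, and its difference did not pass (5.83 ± 1.82 (adjusted p = 0.0918)). Aqp4, the astrocyte water channel, Aldoc, aldolase C, and Gja1, connexin 43, did not pass (2.11 ± 1.21, 2.15 ± 0.56 and 0.32 ± 0.40). Slc1a2, the glutamate transporter GLT-1, had the difference -0.14 ± 0.38.

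Of 18 oligodendrocyte lineage genes measured, 6 rose and none fell, 8 had non-overlapping higher SNs arrays, and the median was 3.53, the highest of the 39 lists. None passed under the culture block (smallest adjusted p = 0.0646). Beside Olig1, Sox10 and Omg these were Pdgfra, the PDGF receptor of oligodendrocyte precursors, Cspg4, the NG2 proteoglycan, and Sox8. Pdgfra read -1.85 and -2.74 in PNs_CT, -0.57 and -1.37 in PNs_NFIA_OE, 0.66 and 2.92 in SNs_CT, and 0.071 and 2.28 in SNs_NFIA_OE, with no overlap, SNs_CT replicate 2 highest and the difference 3.12 ± 0.71 (adjusted p = 0.0419). Cspg4 rose by 2.62 ± 0.52 (adjusted p = 0.0306) and was above background on 2 PNs arrays only. Olig2, the factor that specifies the lineage, did not overlap but missed the test (2.54 ± 0.67 (adjusted p = 0.0596)). Mag, the myelin-associated glycoprotein, read 5.65 in SNs_CT replicate 2 and -3.92 in SNs_CT replicate 1 (4.62 ± 1.73 (adjusted p = 0.141)). Mbp, myelin basic protein, had a negative difference (-1.1 ± 0.34 (adjusted p = 0.0922)). The list's mean level was -0.17 and 3.48 in SNs_CT replicates 1 and 2 for its 5 defining markers, so the replicates of that group stood further apart than SNs_CT replicate 1 did from any PNs array.

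All 10 genes of the NFI and SOXE list had positive differences and 8 rose, at a median of 2.14. Nfix alone passed under the culture block. Within the nuclear factor I family, Nfix was followed by Nfib (1.65 ± 0.38 (adjusted p = 0.043)), Nfia (1.46 ± 0.32 (adjusted p = 0.0391)) and Nfic (1.39 ± 0.27 (adjusted p = 0.0299)), and of these Nfix alone did not overlap. Nfib read 1.99 and 2.66 in PNs_CT, 2.96 and 3.88 in PNs_NFIA_OE, 4.74 and 3.58 in SNs_CT, and 5.40 and 4.36 in SNs_NFIA_OE. Its SNs_CT replicate 2 lay below PNs_NFIA_OE replicate 2. Zcchc24 and Mmd2, both known as targets of SOX9 and NFIA in early gliogenesis, rose by 2.63 ± 0.34 (adjusted p = 0.0144) and 2.98 ± 0.65 (adjusted p = 0.038). Sox8, the SOXE factor of glial lineages, rose by 3.76 ± 0.76 (adjusted p = 0.0314), with control PNs not above background. Sox9 itself read 1.31 and 1.12 in control PNs, 1.15 and 1.54 in NFIA PNs, 1.51 and 1.05 in control SNs, and 2.08 and 2.19 in NFIA SNs and did not pass (0.43 ± 0.22 (adjusted p = 0.268)).

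Early progenitor genes had negative differences in all 16 cases, and 5 fell, at a median of -1.34, none of them under the culture block (smallest adjusted p = 0.0553). Lin28b, an RNA-binding inhibitor of let-7 maturation, read 3.91 and 3.07 in PNs_CT, 3.18 and 1.96 in PNs_NFIA_OE, 1.96 and 2.08 in SNs_CT, and 0.24 and -0.84 in SNs_NFIA_OE. SNs_CT stood level with PNs_NFIA_OE replicate 2, and SNs_NFIA_OE was lowest (-2.17 ± 0.44 (adjusted p = 0.0311)). Igf2bp2 and Igf2bp1, mRNA-binding proteins of embryonic progenitors, fell, with differences of -1.34 ± 0.18 (adjusted p = 0.0144) and -1.55 ± 0.36 (adjusted p = 0.0432). For Igf2bp2 the 4 PNs arrays lay between 3.06 and 3.30 and the SNs arrays between 1.47 and 2.20. Mycn, the progenitor MYC factor, and Ccnd1, cyclin D1, fell, with differences of -1.62 ± 0.25 (adjusted p = 0.0197) and -1.22 ± 0.21 (adjusted p = 0.0239). Hmga2, a chromatin architectural factor, did not overlap but missed the test (-1.47 ± 0.40 (adjusted p = 0.0644)).

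In the list of neural stem cell and radial glia genes 3 of 24 fell and 1 rose, at a median of -0.23. Pax6, a homeobox factor of dorsal progenitors and radial glia, read 0.48, 0.38, -0.47 and -0.77 in PNs and -1.89, -2.73, -2.23 and -2.13 in SNs (-2.15 ± 0.30 (adjusted p = 0.016)). Pou3f2, a POU factor of neural progenitors, fell as well (-1.72 ± 0.28 (adjusted p = 0.0217)). The 5 defining markers Nes, Sox2, Vim, Fabp7 and Msi1 were above background on all 8 arrays and none passed, with mean levels from 4.04 to 4.41 in PNs and from 3.56 to 4.47 in SNs, so the markers that define neural stem and progenitor cells were present in both passages. Sox2 read 2.83 and 2.98 in control PNs, 2.46 and 3.26 in NFIA PNs, 2.68 and 2.62 in control SNs, and 2.99 and 2.96 in NFIA SNs, a difference of -0.071 ± 0.21. Fabp7, the brain lipid-binding protein, did not overlap and was higher in SNs (1.33 ± 0.43 (adjusted p = 0.1)).

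**Figure D3:**
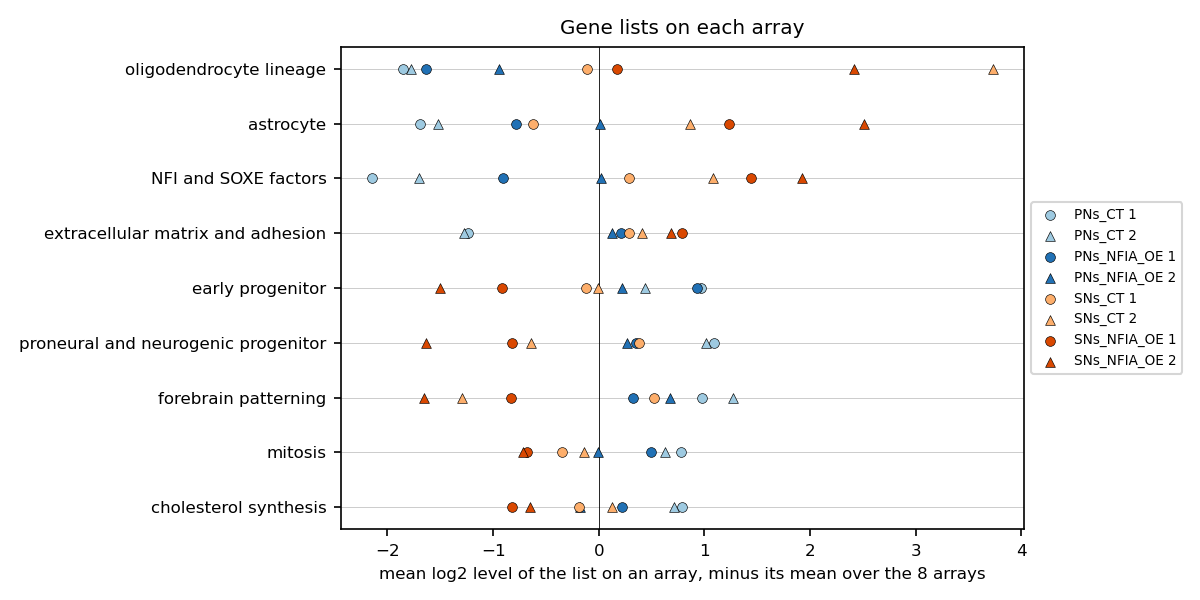
Mean level of 9 gene lists on each of the 8 arrays, as the log2 distance from the list's own mean over the arrays (x axis). Blue points are PNs and orange points SNs, light for control and dark for NFIA cells; in the oligodendrocyte lineage list SNs_CT replicate 2 and SNs_NFIA_OE replicate 2 (triangles) stand above the other SNs arrays.

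Of 29 mitosis genes 21 fell, none rose and all 29 differences were negative, at a median of -0.92, and 19 had non-overlapping lower SNs arrays. None passed under the culture block (smallest adjusted p = 0.0627). Ccnb1, cyclin B1, read 5.44 and 5.02 in PNs_CT, 4.99 and 4.32 in PNs_NFIA_OE, 3.79 and 4.21 in SNs_CT, and 3.15 and 3.57 in SNs_NFIA_OE (-1.27 ± 0.22 (adjusted p = 0.0249)). All SNs arrays lay below all PNs arrays by little, SNs_CT replicate 2 next to PNs_NFIA_OE replicate 2. Mki67, the proliferation marker Ki-67, fell from between 4.91 and 5.44 to between 4.07 and 4.59 (-0.90 ± 0.15 (adjusted p = 0.0219)), and Top2a, topoisomerase II alpha, fell (difference -1.1 ± 0.20 (adjusted p = 0.0263)). Of 29 DNA replication genes 14 fell, none under the culture block (smallest adjusted p = 0.0757), all 29 were negative and the median was -0.92. Those that fell included the licensing genes Mcm3 (-1.40 ± 0.28 (adjusted p = 0.0311)), Cdt1 (-1.20 ± 0.23 (adjusted p = 0.0274)) and Cdc6 (-1.21 ± 0.26 (adjusted p = 0.0366)). Uhrf1, which brings DNA methyltransferase 1 to replicating DNA, fell too (-1.23 ± 0.23 (adjusted p = 0.027)).

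Of 24 cell cycle inhibitors and p53 targets 6 fell and 1 rose, at a median of -0.36, none under the culture block (smallest adjusted p = 0.0653). Cdkn1a, which encodes p21, fell from between 2.26 and 3.13 in PNs to between 0.72 and 1.82 in SNs (-1.29 ± 0.20 (adjusted p = 0.0197)), and so did Bbc3, the p53-induced cell death gene PUMA (-1.30 ± 0.24 (adjusted p = 0.0274)). Cdkn1c, the imprinted inhibitor p57, fell with overlap (-1.47 ± 0.33 (adjusted p = 0.0398)). Cdkn2b, the inhibitor p15, rose (2.33 ± 0.46 (adjusted p = 0.0308)) and was not above background in control PNs.

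Cholesterol synthesis genes had negative differences in all 24 cases and 12 fell, at a median of -0.80. In 4 of the 24 the SNs arrays were lower without overlap, against 8.03% of all genes tested. Under the culture block 1 of the 12 passed. Nsdhl, a sterol dehydrogenase of the pathway, read 1.71 and 1.30 in control PNs, 0.56 and 0.094 in NFIA PNs, 0.22 and 0.27 in control SNs, and -0.67 and -0.44 in NFIA SNs. The NFIA SNs were lowest, and the difference was -1.07 ± 0.19 (adjusted p = 0.0258). Insig1, which retains the SREBP activators of these genes in the endoplasmic reticulum, fell without overlap (-0.89 ± 0.17 (adjusted p = 0.0263)). In the hypoxia and glycolysis list 5 of 29 fell, at a median of -0.67. These included the glucose transporters Slc2a1 (-2.01 ± 0.43 (adjusted p = 0.0364)) and Slc2a3 (-2.30 ± 0.53 (adjusted p = 0.0427)) and the hexokinase Hk2 (-1.70 ± 0.27 (adjusted p = 0.02)). Slc2a1 read 4.41 in SNs_CT replicate 2, close to the PNs, and 2.81, 2.03 and 2.0 on the other SNs arrays. Of 25 respiratory chain genes none passed, and the median was 0.023.

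Extracellular matrix and adhesion genes rose in 9 of 33 cases, with none falling, at a median of 0.66. None passed under the culture block (smallest adjusted p = 0.0799). Col6a1, an alpha chain of type VI collagen, read -1.47 and -2.19 in PNs_CT, 1.23 and 0.99 in PNs_NFIA_OE, 2.83 and 3.29 in SNs_CT, and 3.05 and 2.64 in SNs_NFIA_OE. Control PNs were far below all other arrays, the 4 SNs arrays lay close together, and the difference was 3.31 ± 0.61 (adjusted p = 0.0259). Lama2, a laminin chain, rose without overlap (2.67 ± 0.47 (adjusted p = 0.0249)), and Nid1, the basement membrane protein nidogen 1, rose with overlap (2.25 ± 0.51 (adjusted p = 0.0414)). In the mesodermal and mesenchymal list 5 of 24 rose and 1, Eomes, fell, at a median of 0.59. Dcn, the proteoglycan decorin, gave 0.44 and 0.66 in control PNs, 1.37 and 3.38 in NFIA PNs, 3.77 and 4.31 in control SNs, and 4.89 and 5.46 in NFIA SNs (3.14 ± 0.43 (adjusted p = 0.0154)), with no overlap. The 5 defining mesenchyme markers had mean levels from -1.47 to 1.03 in PNs and from 1.34 to 2.35 in SNs, so those ranges did not overlap, and 2 of the 5 rose. Their part in the matrix result was not tested.

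Receptor genes for glutamate and GABA rose in 7 of 23 cases and none fell, at a median of 0.32, and under the culture block Grm5 alone passed. Beside Grm5 and Gabrg1 they were Gabbr2, a GABA-B receptor subunit (3.01 ± 0.59 (adjusted p = 0.0299)), Grin3a, an NMDA receptor subunit (2.34 ± 0.40 (adjusted p = 0.0233)), the metabotropic receptor Grm3 (1.84 ± 0.42 (adjusted p = 0.0432)), and the AMPA receptor subunits Gria1 (1.62 ± 0.32 (adjusted p = 0.0305)) and Gria4 (1.41 ± 0.27 (adjusted p = 0.029)). Gria1 was highest in SNs_CT replicate 1, at -0.63, whereas the other 3 SNs arrays read from -2.42 to -2.05.

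The signalling lists held from 0 to 4 members past the test. Those counts are to be read against the 3.41% that rose and 3.89% that fell of all genes tested. In the Wnt list 4 of 31 fell, Rspo2, the ligands Wnt8b (-2.83 ± 0.66 (adjusted p = 0.0449)) and Wnt7b (-1.61 ± 0.29 (adjusted p = 0.0249)), and the nuclear effector Tcf7 (-1.24 ± 0.25 (adjusted p = 0.0317)), which with normexp was -0.64 and no longer passed (adjusted p = 0.0691). In the Notch list Jag2, a ligand, fell (-1.22 ± 0.21 (adjusted p = 0.0238)) while Hey2, a target repressor (1.94 ± 0.33 (adjusted p = 0.0238)), and Maml2, a coactivator (1.13 ± 0.24 (adjusted p = 0.0349)), rose, of 18 measured. Hey2 was above background on 1 PNs and 2 SNs arrays, and with normexp its difference was 0.48 and no longer passed (adjusted p = 0.143). The effector Hes5 read 7.10 and 7.08 in control PNs, 6.31 and 6.74 in NFIA PNs, 6.00 and 5.28 in control SNs, and 6.44 and 7.20 in NFIA SNs and did not pass (-0.58 ± 0.40). Of 20 BMP and ID genes 3 passed, the ligands Bmp2 and Bmp7 (1.40 ± 0.32 (adjusted p = 0.0432) and 0.97 ± 0.22 (adjusted p = 0.0426)) and Smad9, a receptor-regulated transducer. Smad9 was not above background on any control array, and its difference of 1.35 ± 0.16 was 0.24 with normexp (adjusted p = 0.413) and 1.0 with quantile normalization (adjusted p = 0.0767), past the test in neither. Id1 and Id3 did not pass (0.19 ± 0.37 and 0.67 ± 0.49). Of 16 genes of the gp130, JAK and STAT list, which serves astrocyte differentiation, 3 rose, among them the shared receptor Il6st (1.04 ± 0.17 (adjusted p = 0.0219)) and the target Cebpd (1.35 ± 0.31 (adjusted p = 0.0419)), Bcl3 fell, and Stat3 did not pass (0.81 ± 0.26 (adjusted p = 0.095)). In the FGF list 1 of 23 rose, Fgf1 (3.76 ± 0.50 (adjusted p = 0.0144)), whose control PNs were not above background. In the Hedgehog list none of 16 passed.

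Growth factor binding and IGF genes rose in 2 of 15 cases and fell in 2, the latter being Igf2bp1 and Igf2bp2. Igf1, the ligand, read -3.47 and -3.52 in control PNs and rose over both cell types (2.74 ± 0.48 (adjusted p = 0.0238)). Immediate early genes rose in 2 of 16 cases, Myc (1.37 ± 0.27 (adjusted p = 0.0311)) and Fosl2 (1.77 ± 0.36 (adjusted p = 0.0317)), but a second probe of Fosl2 had a difference of -0.53, the only disagreement in sign among the 23 named genes with several probes. Including Fosl2 and Grm5, 5 of the 23 had a probe whose difference was smaller by over 1.5 times. The 23 are genes named by rule, and some list members given for context also had such a probe. Further probes gave 0.90 for Nfia, 3.37 for Bcan, 1.96 and 1.15 for Gabbr2, and -0.77 and -1.12 for Ccnb1. For others, such as Lin28b (-2.08) and Neurod1 (-2.94), a further probe gave a similar difference. Of the 14 interferon response genes 1 fell, H2-K1, a class I histocompatibility heavy chain, from between 2.69 and 3.67 to between 0.73 and 1.79 (-1.84 ± 0.19 (adjusted p = 0.0103)); paralogs of that locus can share probes. Amino acid stress genes split into 2 that rose and 3 that fell of 21, with Nupr1, a stress-induced chromatin protein, rising without overlap (2.79 ± 0.34 (adjusted p = 0.0134)) and Chac1, a glutathione-degrading enzyme, falling (-1.45 ± 0.32 (adjusted p = 0.0388)). Among 25 imprinted genes 3 fell, Mirg, Cdkn1c and Grb10, and Dcn rose. In the Polycomb list Ezh2, the histone H3 methyltransferase, fell of 23 (-0.92 ± 0.19 (adjusted p = 0.0328)), and in the DNA methylation and TET list Uhrf1 alone of 13.

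Markers of cell types other than neural ones were followed as well. Of the 25 pluripotency genes 2 fell, Nr0b1 (-2.13 ± 0.30 (adjusted p = 0.016)) and Esrrb (-1.72 ± 0.35 (adjusted p = 0.0331)), while Pou5f1, the core pluripotency factor Oct4, read -1.23 and -1.81 in PNs_CT, -0.23 and -1.15 in PNs_NFIA_OE, -1.28 and -0.24 in SNs_CT, and -3.72 and -2.68 in SNs_NFIA_OE (-0.87 ± 0.68 (adjusted p = 0.454)). The median of that list was 0.077 in control cells and -1.99 in NFIA cells. Of 19 epithelial genes none passed, at a median of -1.26, made of 0.26 in control cells and -2.73 in NFIA cells. Endoderm markers averaged -1.28 in PNs_NFIA_OE replicate 1 and between -5.38 and -3.81 on the other 7 arrays. Among blood and microglia markers 2 of 5, and among endothelium and neural crest markers 1 of 5 each, were above background on no array. Other markers of these sets were above background on every array. They were Csf1r and Tal1 for blood and microglia, Kdr for endothelium, and Sox10, Ngfr and Tfap2b for neural crest. Kdr read from 3.44 in PNs_CT replicate 1 to 4.32 in PNs_NFIA_OE replicate 2. In the neural crest list, 2 of 14 rose, Sox10 and Ets1, and 2 fell, Pax3 and Tfap2b. Ependymal and choroid plexus genes rose in 2 of 13 cases, Dynlrb2, a dynein light chain of cilia (2.40 ± 0.44 (adjusted p = 0.0259)), and Ecrg4, a secreted choroid plexus protein (3.68 ± 0.82 (adjusted p = 0.0397)). Ecrg4 was above background on 2 PNs arrays only. In the endoderm list the collagen gene Col4a1 rose alone, of 12.

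**Figure D4:**
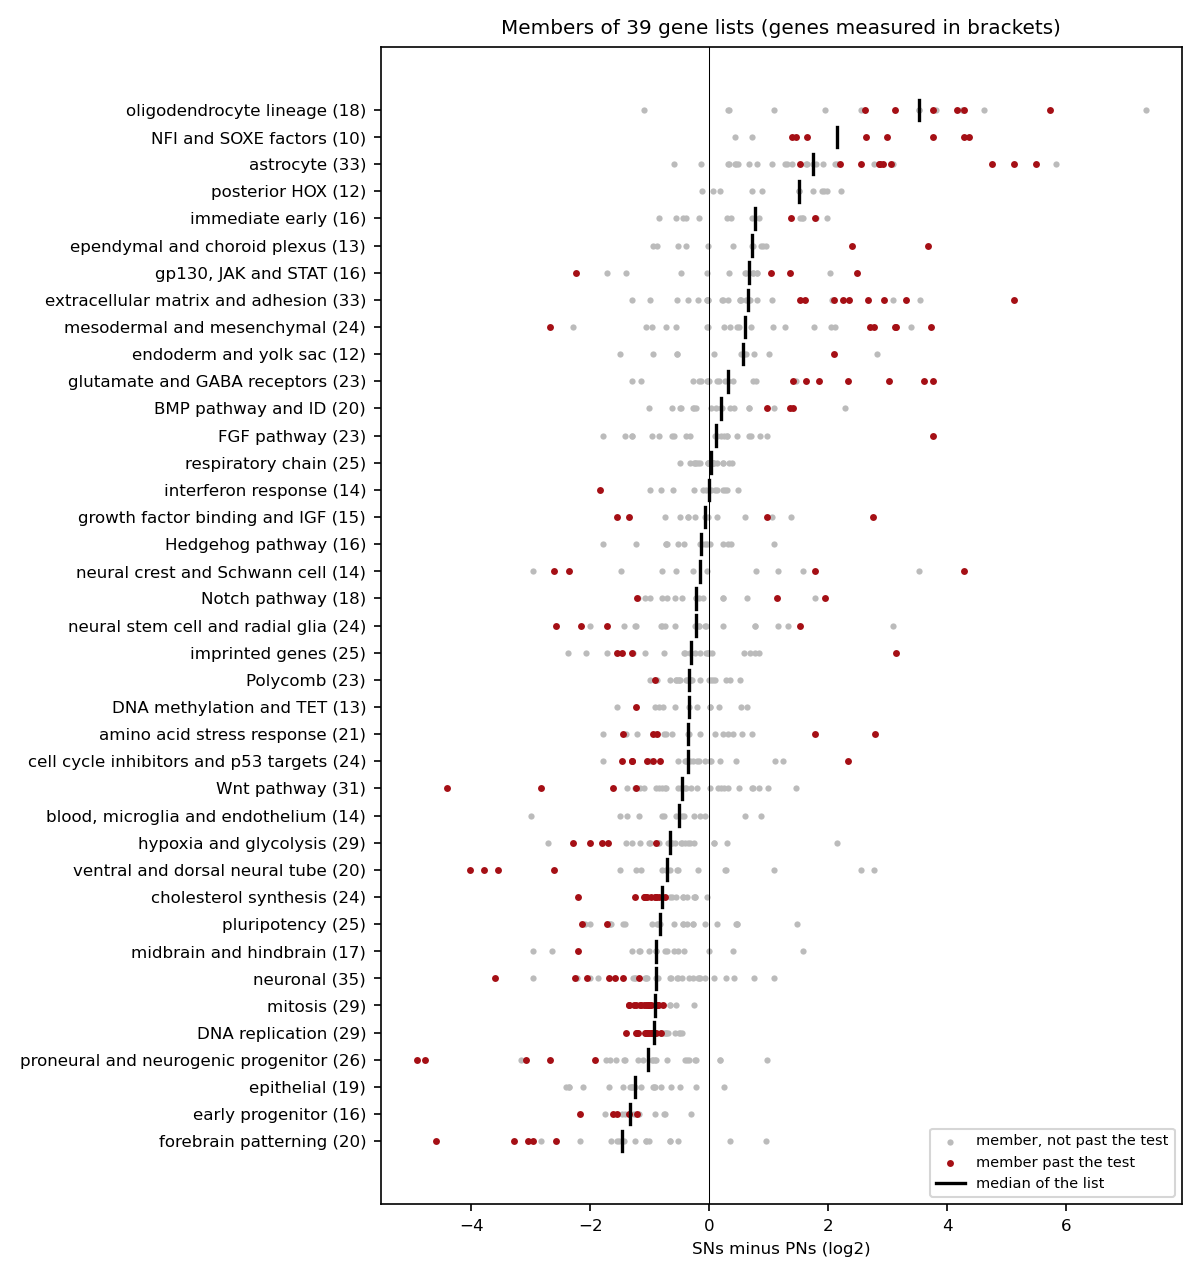
Difference between SNs and PNs (x axis, log2) of each measured member of 39 gene lists, ordered by the list's median (black bar), with members past the test in red and others in grey. The oligodendrocyte lineage list has the highest median at 3.53 and the forebrain patterning list the lowest at -1.47.

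The passage difference was then taken within each cell type, as SNs_CT against PNs_CT and SNs_NFIA_OE against PNs_NFIA_OE, in 1 model of the 4 group means. In control cells 100 genes rose (0.725%) and 19 fell (0.138%), and in NFIA cells 75 rose (0.544%) and 185 fell (1.34%); 32 genes passed in both. All 1006 genes past the test over both cell types had the same sign in each, a direction which their choice over both partly fixes. For the difference between the 2 cell types' passage effects limma called 0 genes at an adjusted p under 0.05, with 931 at an unadjusted p under 0.05 and a smallest adjusted p of 0.0713. Without SNs_CT replicate 1 that count was 30, and without SNs_CT replicate 2 it was 1. The 119 calls in control cells became 8, 10, 64, 64, 444, 52, 78 and 78 on leaving out, in turn, PNs_CT replicates 1 and 2, PNs_NFIA_OE replicates 1 and 2, SNs_CT replicates 1 and 2 and SNs_NFIA_OE replicates 1 and 2. The 260 calls in NFIA cells became 0, 0, 0, 63, 747, 747, 0 and 0 in the same order.

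Individual members had unequal values in the cell types, none of which passed that test. Ccn4 differed by at least 4.16 in control cells, where PNs were not above background (measured signals 6.18 ± 0.56), and by 1.99 ± 0.56 in NFIA cells, and Col1a1 by 5.45 ± 0.51 and 1.99 ± 0.51. Those genes were already higher in NFIA PNs than in control PNs. Grm5 had the opposite order, 2.97 ± 0.46 in control and 4.55 ± 0.46 in NFIA cells, as did the losses of Nhlh2 (-4.15 ± 0.85 and -5.67 ± 0.85) and Dbx1 (-2.94 ± 0.66 and -4.65 ± 0.66). Nfix differed about equally, by 4.61 ± 0.70 and 4.12 ± 0.70, and so did Tbr1, by -4.95 ± 0.60 and -4.61 ± 0.60. Each error is an SE from the spread pooled over all 4 groups.

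**Figure D5:**
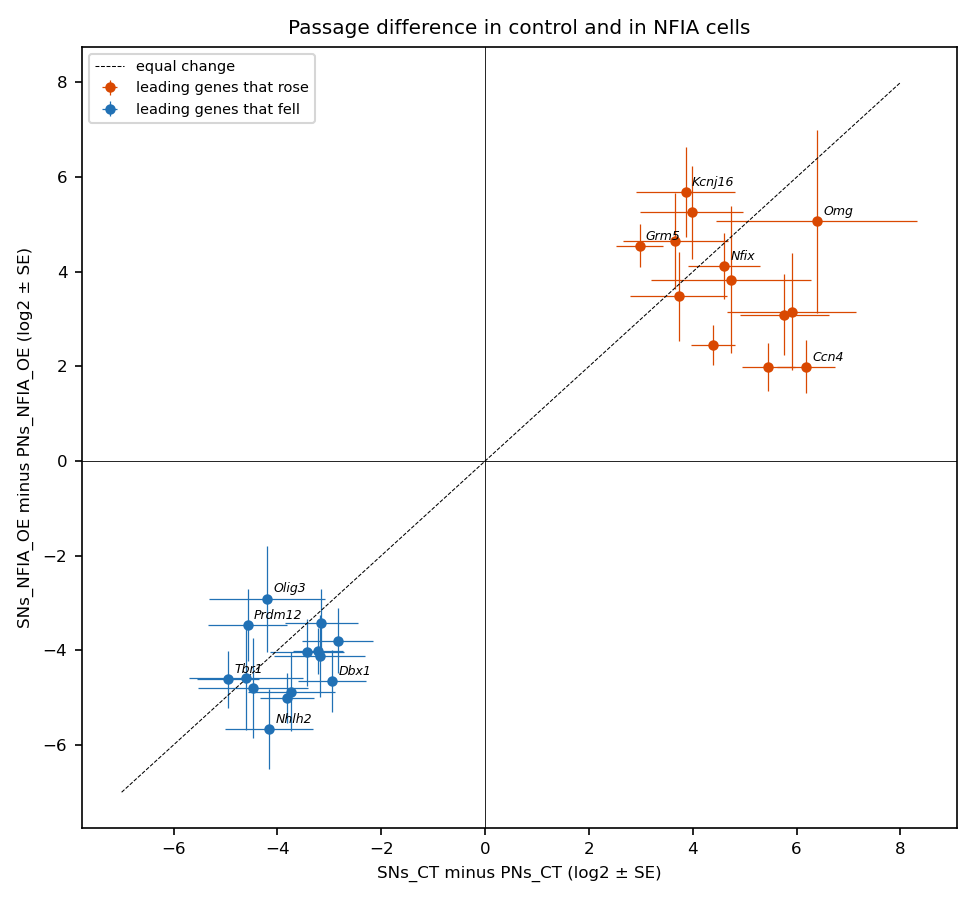
Passage difference of 27 of the 30 leading genes in control cells (x axis) and NFIA cells (y axis), log2 with SE bars from the 4-group model, with the dashed line at equal change. Ccn4 stands at 6.18 in control cells, whose PNs were not above background, and at 1.99 in NFIA cells, and Nhlh2 at -4.15 and -5.67.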

How the data were processed

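Total RNA of 8 sorted samples was labelled with Cy3, per the labels' protocols, and read with Agilent Feature Extraction, version 10.5.1.1 per the file headers and 10.7.3.1 per the submitters' processing notes. Deposited values were the scanner's processed signal intensity (background-subtracted by that software, per the file headers) with its background and outlier flags, and the authors' value table in log2 units, whose probe medians over the arrays were 0 within 0.00025. How the authors scaled that table is not given in the sources used here.

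Each value-table column was matched to the scanner file it correlated with best, and samples were grouped by title. Log2 processed signals minus each array's 75th percentile were used, without control spots and 126 probes with outlier flags. A symbol was found for 26056 of 55681 probes. Probes entered if any of the 4 groups had them well above background on its 2 arrays, and a gene was represented by its brightest probe (3644 genes had several), which gave 13789 genes. The 2-sided test was limma 3.58.1 (lmFit and eBayes, R 4.3.3) with NFIA state as covariate and Benjamini-Hochberg adjustment over all genes at 0.05; errors are SE. Means of 4 groups gave the differences within cell types. On simulated data of 13789 genes with 200 changed, this comparison recovered 36%, 78%, 82% and 94% of genes changed by 1, 2, 3 and 4 log2 units and called 7 unchanged genes. The simulated arrays were drawn independently, without the shared deviations of same-number arrays seen here. These rates therefore cannot show recovery or false calls where arrays deviate together.

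The members, the 39 gene lists, the tests and the other settings were chosen with earlier results of these data known. Genes are named by rule: among genes past the test without overlap, the 15 largest rises and the 15 largest falls; in each list, the 3 members of lowest p; and cell type markers; other list members are given for context. Of the genes so chosen, some are not reported here. The rule's genes for the difference between cell types were none, since none passed. Alternatives were background correction, scaling, filter, probe choice, covariates, blocks and each array left out. For normexp (offset 50) the median signal replaced the mean signal that had been planned, which is not a column of the files. Promoters are RefSeq's on GRCm38.p6, the first one listed for a gene.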

Additional observations from a re-analysis of the deposited data

Results flagged for a closer look

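Of 60 sets of 4 arrays checked, the PNs and the SNs arrays of the 30 leading genes, 1 held an array far from the others by Dixon's limit, and chance gives such an array in about 1 in 20 sets. It was Atp10b on the PNs arrays, where PNs_NFIA_OE replicate 1 read -5.73 and the other 3 arrays read from -6.53 to -6.50, so that its gap took 0.972 of the range. No PNs array had Atp10b well above background.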

How the results depend on the processing

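The direction of the 92 named genes held in every alternative run for them except 1, but their calls did not: 85 passed with normexp, 88 with quantile normalization, 62 with no filter on dim probes and 42 with the replicate block, and from 13 (without PNs_NFIA_OE replicate 1) to 88 (without SNs_CT replicate 1) on leaving out an array. With normexp 32 of the 92 differences were smaller by over 1.5 times, among them, beside those given above, Cdkn2b 0.87, Col6a2 1.68, Cspg4 1.33, Ecrg4 2.38, Fgf1 2.13, Grin3a 1.4, Itih3 3.34, Jag2 -0.70, Nr0b1 -0.90, Slc4a4 1.36, Sox8 1.96 and Wnt7b -1.03. The exception was the files taken as attached to the samples, where 56 of the 85 named genes measured turned sign and none passed (adjusted p 1.00 for each of the 56). Log2 differences that had fallen and were then positive were Cartpt 0.88, Ccna2 0.22, Ccnd1 0.22, Cdkn1a 0.34, Cdt1 0.17, Eomes 0.32, Gsx2 1.04, H2-K1 0.025, Lhx2 1.36, Mki67 0.059, Mycn 0.061, Nhlh2 0.068, Nr0b1 0.23, Olig3 0.10, Pax3 0.80, Pax6 0.34, Rasgrp1 0.33, Robo3 0.46, Rrm1 0.13, Scg2 0.33, Shmt2 0.12, Slc17a6 0.37, Sst 1.13, Tbr1 0.62, Tcf7 0.24, Tfap2b 0.57, Uhrf1 0.18, Wnt7b 0.15. Those that had risen and were then negative were Atp13a4 -0.12, Cbs -0.78, Ccn4 -0.12, Cebpd -0.10, Col1a1 -0.52, Col6a2 -0.083, Cspg4 -0.53, Dcn -0.55, Ecrg4 -0.53, Fgf1 -0.067, Fosl2 -0.46, Gabrg1 -1.05, Grin3a -0.86, Grm5 -0.27, Igf1 -0.64, Itih3 -0.81, Maml2 -0.47, Myc -0.055, Nfic -0.26, Nfix -0.74, Olig1 -1.02, Omg -1.28, S100a4 -0.30, Slc4a4 -0.48, Sox10 -0.51, Sox8 -0.72, Sparcl1 -0.70, Zcchc24 -0.39. In that setting no gene passed over both cell types, in control cells or in NFIA cells, 83 genes did not overlap, and the medians of 24 of the 39 lists turned sign.

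Of the 1006 calls over both cell types, 475 were left with no filter on dim probes (444 of them shared), 72 with no NFIA covariate, and 0 with the source name in place of the title as covariate, where 2875 genes stood at an unadjusted p under 0.05. Array weights gave 1517 calls, and leaving out both NFIA samples with a wild-type source name gave 0. Settings chosen after seeing the data gave 53 calls (culture block), 61 (means of the paired arrays, 43 rising and 18 falling) and 394 (crossed replicate block). Replicate numbers did not pair PNs with SNs (correlations of their deviations -0.188 in control and 0.0419 in NFIA cells). With the replicate block 273 genes passed over both cell types, and 34 in control and 4 in NFIA cells. The slide column as a block is the same model, since each column held 1 cell type and replicate number. Its 273 calls are therefore no second result, and replicate number and slide column cannot be told apart. Without the dim filter 52 genes passed in control and 70 in NFIA cells. Quantile normalization gave 1 gene for the difference between cell types. With every kept probe 3382 and with no dim filter 4071 features did not overlap, 2918 of the latter higher in SNs, where the scale's floor was also higher. Leaving out 1 array gave 58 to 1666 calls over both cell types, 8 to 444 in control cells, 0 to 747 in NFIA cells, 0 to 30 for the difference and 1932 to 3688 genes without overlap, which is an easier rule with 7 arrays. The value table as deposited (984), normexp (999), quantile normalization (933) and the median scaling (985, of which 53% rose against 46.7%) stayed within 1.5 times. The cause of these changes was not tested.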

Other observations

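Some genes outside the lists passed the test also with control and NFIA arrays of the same number as a block; those below were chosen after their values were seen. Slc6a11, the GABA transporter GAT-3 of astrocytes, read -5.36 and -4.36 in PNs_CT, -4.83 and -3.33 in PNs_NFIA_OE, -1.85 and -0.86 in SNs_CT, and -1.15 and -0.56 in SNs_NFIA_OE, a difference of 3.37 ± 0.41 (adjusted p = 0.0378 with the block). Both PNs_CT arrays and PNs_NFIA_OE replicate 1 read below the lowest level called well above background there. The size of that difference thus rests partly on signals near the floor. Aldh1a3, a retinoic acid synthesis enzyme, rose by 3.01 ± 0.30 (adjusted p = 0.0375 with the block), Abca1, a cholesterol exporter, by 2.91 ± 0.30 (0.0378), Nfatc1, a calcium-dependent transcription factor, by 2.66 ± 0.25 (0.0378) and Prkca, a protein kinase C, by 2.0 ± 0.19 (0.0375), each with all SNs arrays above all PNs arrays. Lhx9, a LIM homeobox factor of the diencephalon and dorsal spinal cord, differed by -3.01 ± 0.37 (0.0425), Nrn1, neuritin, by -2.48 ± 0.22 (0.0375), and Tfrc, the transferrin receptor, by -1.58 ± 0.16 (0.0378), each lower without overlap.

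Neuropeptide precursors beyond Cartpt and Sst, also picked after their values were seen, fell in the fit without the block: Nts, neurotensin (-2.51 ± 0.46 (adjusted p = 0.0259)), Tac1, the substance P precursor (-2.64 ± 0.43 (adjusted p = 0.0216)), and Adcyap1, the PACAP precursor (-2.22 ± 0.35 (adjusted p = 0.0201)). The SNs and PNs arrays of the same cell type correlated over all genes at a mean r of 0.938, those of different cell types within a passage at 0.950, and the 2 arrays of a group at 0.968.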
